A study of Mus musculus with 8 samples.

Results

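HCN pacemaker channels were examined through the 3 genes *Hcn2*, *Hcn3* and *Hcn4*, taken by symbol from the 24015 rows of a table of read counts per gene. All 3 were among the 15588 genes that passed the filter of at least 1 CPM (counts per library scaled to a common total) in at least 1 library, and other HCN genes were not analysed here. The table came from mice at postnatal day 7 (P7) on the inbred C57BL/6N background, and the study asked how brain gene expression responds when 1b, a non-coding stretch of the *Scn1a* locus, is deleted. The protein made from *Scn1a* is a sodium channel of neurons that opens with voltage. The genotypes were WT with 0 deleted alleles (2 mice, males only), 1b+/- with 1 deleted allele (4 mice, of which replicates 1 and 2 were male and 3 and 4 female) and 1b-/- with 2 deleted alleles (2 mice, females only), with 1 library per mouse, and the labels give no drug or other agent. The deletion was made with Cas9 in C57BL/6N oocytes, is present in every cell of the body, and was carried on by crosses to C57BL/6N. Between WT and 1b-/- the genotype and the sex cannot be told apart.

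HCN channels are opened by hyperpolarization of the membrane and pass a mixed inward current of sodium and potassium ions, called Ih in neurons and the funny current in the heart. Each channel is built from a group of subunits that may be alike or mixed, and binding of cyclic AMP to the cytoplasmic end of a subunit eases opening in some subunit types more than in others. *Hcn2* is widespread in the brain and responds to cyclic AMP, *Hcn3* responds weakly or not at all, and *Hcn4* opens slowly, responds strongly to cyclic AMP and is the main subunit of the cardiac pacemaker and of several thalamic and subcortical neurons. In dendrites and axons the current sets resting potential and excitability, and altered Ih has been described in epilepsy models, which is the setting in which *Scn1a* is studied.

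The 3 genes lie on separate chromosomes and share an exon plan of 8 exons. In the GENCODE annotation of mm9, *Hcn2* (ENSMUSG00000020331.3) lies on the plus strand at chr10:79179379-79198853 with a longest transcript of 3195 bases, *Hcn3* (ENSMUSG00000028051.4) on the minus strand at chr3:88949996-88964118 with 4002 bases, and *Hcn4* (ENSMUSG00000032338.8) on the plus strand at chr9:58671319-58708762 with 3798 bases. The longest stretch shared by any pair of transcripts was 33 bases for *Hcn2* and *Hcn3* and 32 bases for each of the other pairs. These shared stretches were shorter than the 50-base reads. None of the 3190, 3953 and 3749 windows of 50 bases in the *Hcn2*, *Hcn3* and *Hcn4* transcripts was found without mismatch anywhere else in mm9, whereas 2820, 3624 and 3422 of them were found at their own gene, the others spanning exon junctions. Reads that match without error could therefore be told apart between the 3 genes. The last 711 bases of *Hcn3* overlap exons of *Pklr*, the liver and red cell pyruvate kinase, on the opposite strand. *Pklr* held 2 to 10 counts per library, or 0.202 to 0.795 CPM before scaling, and whether counting used the strand is not given in the sources used here.

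Libraries held 2947770 counts (1b+/- replicate 4) to 20878772 counts (1b+/- replicate 3), so that 3 counts, the limit a count of 0 allows, stood for 0.145 to 1.0 CPM, a limit that covers counting error only. CPM values below were scaled by TMM (trimmed mean of M-values). The labels give the tissue as hippocampus and the methods of the study give forebrain for P7. Of 8 hippocampal marker genes 7 passed the filter and *Spink8*, a marker of hippocampal pyramidal cells, was at 0 to 0.50 CPM, with sums of 106 to 181 CPM for the list against 941 to 1394 CPM for 8 neocortical genes and 185 to 463 CPM for 8 thalamic genes, so the region is uncertain. As a check of the labels, *Scn1a* fell from 42.8 ± 3.32 CPM in WT (SD, n = 2) to 22.5 ± 4.91 in 1b+/- (n = 4) and 2.59 ± 0.834 in 1b-/- (n = 2), with adjusted p = 0.000596 for 1b-/- against WT and 0.381 for 1b+/- against WT (edgeR quasi-likelihood test, Benjamini-Hochberg over all genes tested). Sums of marker genes varied between libraries in all 3 genotypes. Thalamic genes summed to 463 CPM in WT replicate 1, the highest library, and to 209 CPM in WT replicate 2. Interneuron genes were highest in WT replicate 2, at 935 CPM, and striatal genes in 1b-/- replicate 1, at 247 CPM. Dixon's 95% value for a sample apart from its group was passed by 0 of 29 measures. It was applied to 1b+/- only, as 2 mice in WT and in 1b-/- are too few. With 4 libraries it asks for a gap of 0.829 of the range, so not passing it says little. Genes of midbrain and hindbrain were highest in 1b+/- replicate 1, at 85.3 CPM against 3.67 to 22.7 CPM in the other libraries. Choroid plexus genes were lowest in 1b+/- replicate 2, at 22.1 CPM against 183 to 1009 CPM. Values without 1b+/- replicate 1 and without 1b+/- replicate 2 are given below.

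All 3 HCN genes were read in every library, at levels at or below the middle of the genes tested. *Hcn2* held 104 and 69 counts in WT replicates 1 and 2, 218, 66, 222 and 31 in 1b+/- replicates 1 to 4, and 72 and 42 in 1b-/- replicates 1 and 2. After scaling this was 8.60 and 10.6 CPM in WT, 14.4, 6.67, 10.8 and 10.3 CPM in 1b+/-, and 8.81 and 10.5 CPM in 1b-/-. The lowest and the highest library were both 1b+/-, both male, and enclosed every WT and 1b-/- value.

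*Hcn3*, the subunit with the weakest response to cyclic AMP, held 179 and 112 counts in WT, 357, 130, 368 and 58 in 1b+/-, and 117 and 72 in 1b-/-. The scaled levels were 14.8 and 17.2 CPM in WT, 23.6, 13.1, 17.8 and 19.4 CPM in 1b+/-, and 14.3 and 18.03 CPM in 1b-/-. As for *Hcn2*, 1b+/- replicate 1 was highest, 1b+/- replicate 2 was lowest, and the 3 genotypes overlapped.

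*Hcn4*, the slow subunit, held the most counts of the 3 in every library, with 263 and 187 in WT, 429, 165, 477 and 99 in 1b+/-, and 157 and 111 in 1b-/-. The scaled levels were 21.7 and 28.7 CPM in WT, 28.3, 16.7, 23.1 and 33.1 CPM in 1b+/-, and 19.2 and 27.8 CPM in 1b-/-. Replicate 2 of 1b+/- was again lowest, but the highest library was 1b+/- replicate 4, which had the fewest counts in total.

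**Figure D1:**
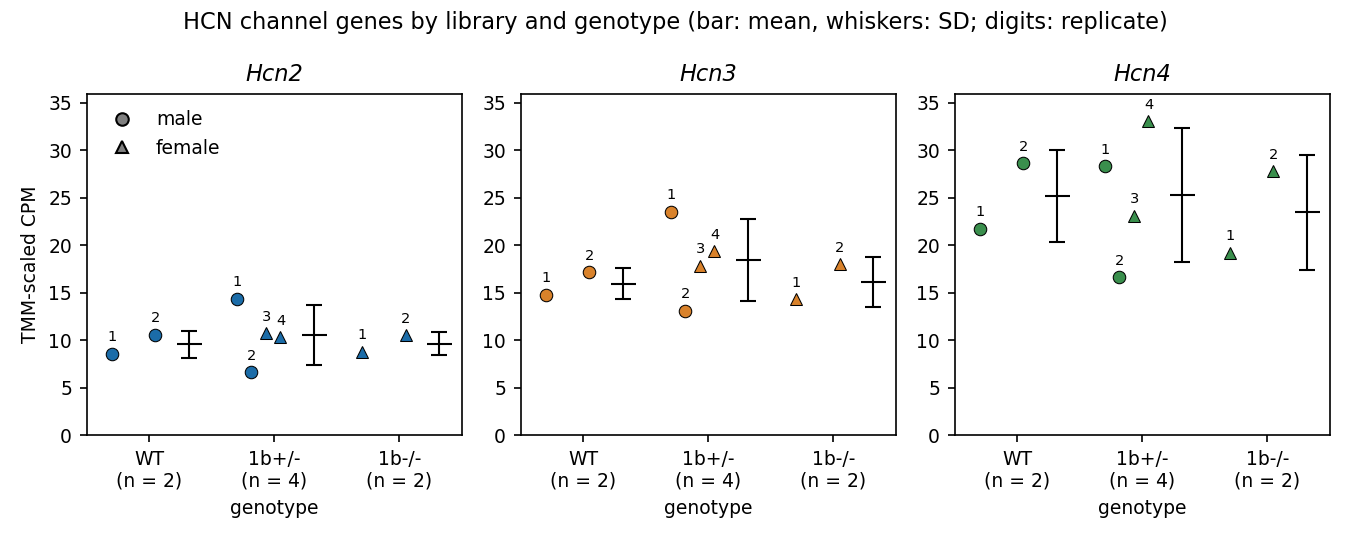
TMM-scaled CPM (y axis) of *Hcn2*, *Hcn3* and *Hcn4* by genotype (x axis), with circles for male and triangles for female mice, the replicate number above each point, and the mean and SD of each genotype to the right of its points. The 4 1b+/- libraries span 6.67 to 14.4, 13.1 to 23.6 and 16.7 to 33.1 CPM, and every WT and 1b-/- point lies within those spans.

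None of the 3 genes differed between genotypes beyond the spread among mice. *Hcn2* averaged 9.59 ± 1.40 CPM in WT (SD, n = 2), 10.5 ± 3.16 in 1b+/- (n = 4) and 9.66 ± 1.20 in 1b-/- (n = 2). *Hcn3* averaged 15.98 ± 1.67, 18.5 ± 4.31 and 16.2 ± 2.62 CPM in the same order. *Hcn4* averaged 25.2 ± 4.89, 25.3 ± 7.04 and 23.5 ± 6.06 CPM. The means of WT and 1b-/-, the genotypes farthest apart in *Scn1a*, were within 1 SD of each other for all 3 genes.

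In 1b+/- against WT, 0 of 3 HCN genes passed an adjusted p of 0.05 in the quasi-likelihood test of edgeR, where 0.0834% of all genes tested did, and 0 of 3 had an unadjusted p under 0.05, where 4.34% did. The log2 fold change of *Hcn2* was 0.16 (SE 0.28), with a 95% confidence interval that ran from 0.726-fold to 1.71-fold. That of *Hcn3* was 0.21 (SE 0.24; 0.812-fold to 1.66-fold), the largest difference of the 3 in size, with an unadjusted p of 0.381 in the edgeR fit. That of *Hcn4* was -0.01 (SE 0.26; 0.668-fold to 1.47-fold). CPM ranges overlapped for all 3, while ranges did not overlap for 12.3% of all genes.

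In 1b-/- against WT, again 0 of 3 passed, against 0.00642% of all genes (*Scn1a* was the single gene called), and 0 of 3 passed without adjustment, against 1.64%. The log2 fold changes were 0.01 for *Hcn2* (SE 0.34), 0.01 for *Hcn3* (SE 0.28) and -0.11 for *Hcn4* (SE 0.31). Their intervals ran from 0.604-fold to 1.68-fold, from 0.661-fold to 1.53-fold and from 0.581-fold to 1.48-fold. With sex as a covariate, *Hcn4* moved to -0.39 in this comparison (SE 0.44; edgeR adjusted p = 0.9999), -0.15 in 1b+/- against WT and -0.19 per deleted allele, while *Hcn2* and *Hcn3* stayed at 0.014 and 0.0073 here, and 0 of 3 passed. Differences as far from 1 as 0.581-fold and 1.68-fold thus remained within these intervals, whereas the interval of *Scn1a* ran from 0.0396-fold to 0.103-fold. The CPM ranges of all 3 HCN genes overlapped, although with 2 mice against 2 they did not for 23.6% of all genes.

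In 1b-/- against 1b+/-, 0 of 3 passed at an adjusted p of 0.05 (0.00642% of all genes did) and 0 of 3 at an unadjusted p of 0.05 (1.23% did). All 3 fitted values were below 0, at -0.15 for *Hcn2* (SE 0.29; 0.578-fold to 1.41-fold), -0.20 for *Hcn3* (SE 0.24; 0.601-fold to 1.25-fold) and -0.10 for *Hcn4* (SE 0.27; 0.620-fold to 1.40-fold). Ranges overlapped for all 3 and failed to overlap for 7.39% of all genes. This comparison shares its libraries with the other 2, so its direction is not separate evidence.

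Fitted as a slope over the number of deleted alleles, *Hcn2* moved by a log2 value of 0.01 per allele (SE 0.17), *Hcn3* by 0.01 (SE 0.14) and *Hcn4* by -0.05 (SE 0.15). The intervals ran from 0.783-fold to 1.29-fold, 0.813-fold to 1.25-fold and 0.771-fold to 1.20-fold per allele. They refer to a step of 1 allele, so their width cannot be set beside that of 1b-/- against WT, which spans 2. None of the 3 passed with or without adjustment, against 0.0385% and 1.73% of all genes. Exact two-sided permutation tests of mean CPM gave p = 0.467 to 1 for the 9 comparisons of 3 genes, all 1 after adjustment over the 9. The likelihood ratio test of edgeR and the Wald test of DESeq2 also gave 0 of 3 in each of the 4 fits, adjusted or not. With 4 mice against 2 an exact permutation test cannot give less than 0.0667, and with 2 against 2 not less than 0.333.

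**Figure D2:**
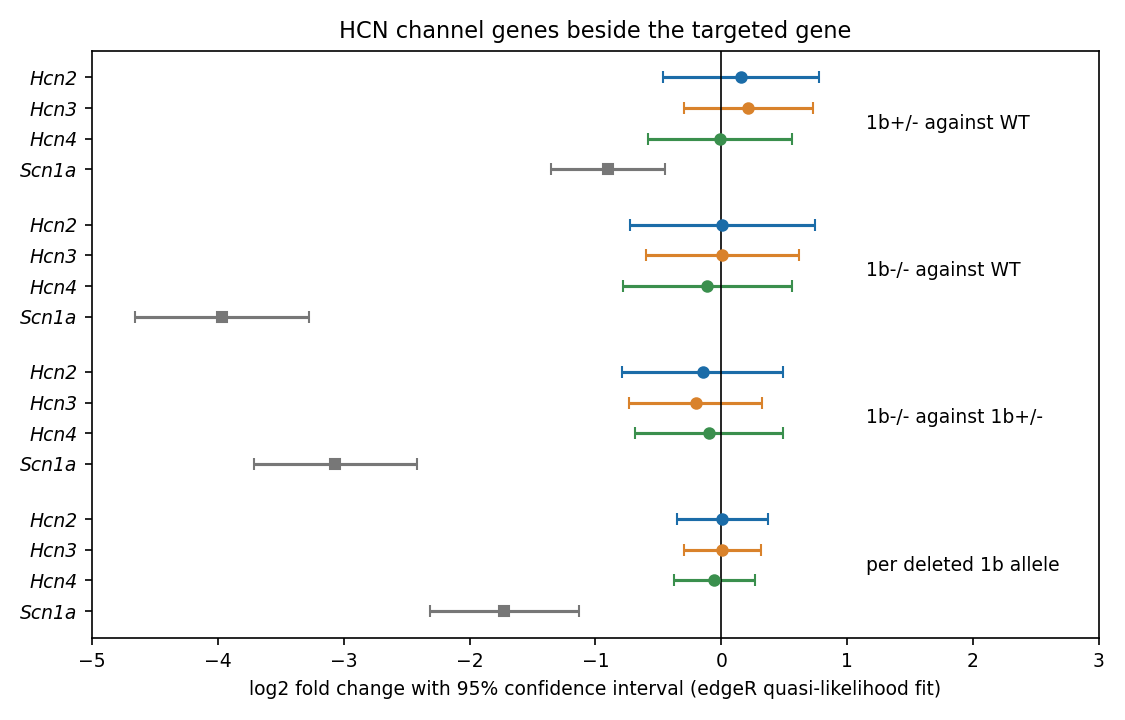
Log2 fold changes (x axis) of *Hcn2*, *Hcn3*, *Hcn4* and the targeted gene *Scn1a* (y axis) in the 3 comparisons of genotypes and per deleted allele, as points with 95% confidence intervals from the edgeR fit over all 8 libraries. The intervals of the HCN genes all include 0, and those of *Scn1a* all lie below it.

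No call depended on 1b+/- replicate 1 or on 1b+/- replicate 2. Without 1b+/- replicate 1, and likewise without 1b+/- replicate 2, 0 of 3 HCN genes passed an unadjusted p of 0.05 in any of the 4 fits. The fitted values did shift. In 1b+/- against WT the log2 fold change of *Hcn2* was -0.049 without replicate 1 and 0.33 without replicate 2, against 0.16 with all libraries, and the largest value reached by *Hcn3* was 0.35, without replicate 2.

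The levels varied by about the same factor in the 3 genes. Over 8 libraries the highest level was 2.16 times the lowest for *Hcn2*, 1.79 times for *Hcn3* and 1.98 times for *Hcn4*. The biological coefficient of variation fitted by edgeR, which leaves counting error out, was 22.8%, 19.4% and 21.5%. Counting error at the lowest count of each gene (31, 58 and 99, all in 1b+/- replicate 4) comes on top of it, at 17.96%, 13.1% and 10.1%.

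The 3 genes moved together from library to library, though the share of all gene pairs that did so is not given here. As log2 deviations from the mean of all 8 libraries, the average of the 3 was -0.18 and 0.12 in WT replicates 1 and 2, 0.41, -0.49, 0.04 and 0.23 in 1b+/- replicates 1 to 4, and -0.25 and 0.12 in 1b-/- replicates 1 and 2. Each genotype thus held libraries above and below the mean. Across 8 libraries, Pearson's r of log2 CPM was 0.954 for *Hcn2* and *Hcn3*, 0.825 for *Hcn3* and *Hcn4* and 0.769 for *Hcn2* and *Hcn4*, given as a description over points that share depth and base composition. Without 1b+/- replicate 1 these were 0.911, 0.929 and 0.834.

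Base composition moved with the same libraries. The annotated exons of the HCN genes are rich in G and C, at 65.4% for *Hcn2*, 58.0% for *Hcn3* and 60.8% for *Hcn4*, against a median of 50.02% over the 14294 genes with a value (91.7% of those tested). They are higher than 99.5%, 90.2% and 96.8% of those genes. The GC-rich genes, 1427 genes with at least 57.99% of G and C that did not include the 3, had median log2 deviations of -0.19 and 0.08 in WT, 0.20, -0.12, -0.07 and 0.19 in 1b+/-, and -0.21 and 0.19 in 1b-/-. *Hcn4* deviated in the same direction as these genes in 8 of 8 libraries, and *Hcn2* and *Hcn3* in 7 of 8, the exception being 1b+/- replicate 3. The share of all genes with such agreement is not given here. Once a smooth curve of deviation on GC content was taken off each library, the SD within genotypes fell from 0.37 to 0.28 (log2) for *Hcn2*, from 0.30 to 0.17 for *Hcn3* and from 0.39 to 0.21 for *Hcn4*. The correlations were then 0.864 for *Hcn2* and *Hcn3*, 0.475 for *Hcn3* and *Hcn4* and 0.421 for *Hcn2* and *Hcn4*, and 0 of 3 genes passed in any comparison. The curve was added after the data had been seen, and the part of base composition in the shared movement was not tested.

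**Figure D3:**
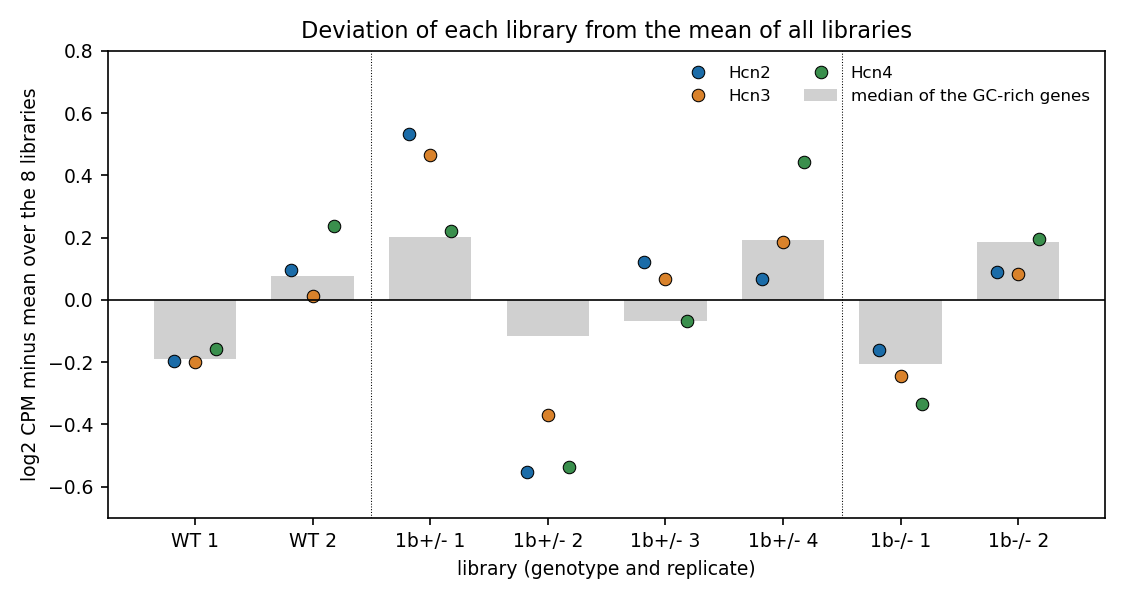
Log2 CPM minus the mean over the 8 libraries (y axis) for *Hcn2*, *Hcn3* and *Hcn4* (points) and the median of the 1427 GC-rich genes (grey bars), by library (x axis, dotted lines between genotypes). Points and bars lie on the same side of 0 in 7 of 8 libraries for *Hcn2* and *Hcn3* and in 8 of 8 for *Hcn4*, and 1b+/- replicate 2 lies lowest for all 3 genes.

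The transcripts closest in course to each HCN gene were looked up as a description. The best of many can exceed the values between HCN genes by selection alone. Among 9608 genes with a mean of at least 10 CPM, the 3 with the highest Pearson's r over 8 libraries were *Prss12*, *Slc6a7* and *Arhgap44* for *Hcn2* (0.972, 0.962 and 0.960), *Cox5a*, *Adrbk1* and *Hip1* for *Hcn3* (0.977, 0.975 and 0.972), and *Vps18*, *Dbndd1* and *Gpt2* for *Hcn4* (0.996, 0.990 and 0.989). They are the highest of many values over few points, and no gene was named for more than 1 HCN gene. The GC content of these 9 genes ran from 50.7% to 58.2%.

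Per length of the longest annotated transcript, *Hcn4* had the highest read level of the 3 and *Hcn2* the lowest. These levels were not adjusted for GC content, which was 65.4% in *Hcn2*, 58.0% in *Hcn3* and 60.8% in *Hcn4*. Its part in the order of the genes was not tested. *Hcn2* stood at 3.16 ± 0.6996 CPM per kilobase (SD, n = 8), *Hcn3* at 4.32 ± 0.828 and *Hcn4* at 6.54 ± 1.45. Of 14294 genes with a length, 35.3%, 41.1% and 50.1% were lower. The ranges of neighbours in this order overlapped between libraries (2.09 to 4.50, 3.28 to 5.89 and 4.39 to 8.70 CPM per kilobase), but the order was the same within each of the 8 libraries. The level of *Hcn4* was 1.503 times that of *Hcn3* (1.27 to 1.80 over libraries) and 2.07 times that of *Hcn2* (1.66 to 2.69), and *Hcn3* was 1.38 times *Hcn2* (1.30 to 1.57).

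The place of *Hcn3* in that order depended on the length used. The same counts of the whole gene, reads from UTRs included, were divided by each length, so only the divisor changed. With coding length alone, *Hcn3* reached 7.38 ± 1.42 CPM per kilobase and *Hcn4* 6.88 ± 1.53, *Hcn4* was higher in 3 of 8 libraries, and the ratio of *Hcn4* to *Hcn3* was 0.926 (0.780 to 1.11 over libraries). The annotated *Hcn3* transcript has 1525 bases of 3′ UTR and 137 of 5′ UTR, *Hcn2* has 568 and 35, and *Hcn4* has 192 and none, so the length of *Hcn4* rests almost wholly on its 3606 coding bases. With the bases shared with *Pklr* taken off its length, but no reads taken off its count, *Hcn3* stood at 5.25 ± 1.01 CPM per kilobase. *Hcn4* was still higher in 8 of 8 libraries. *Hcn2* was lowest in 8 of 8 libraries with every length tried, none of them adjusted for GC content.

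**Figure D4:**
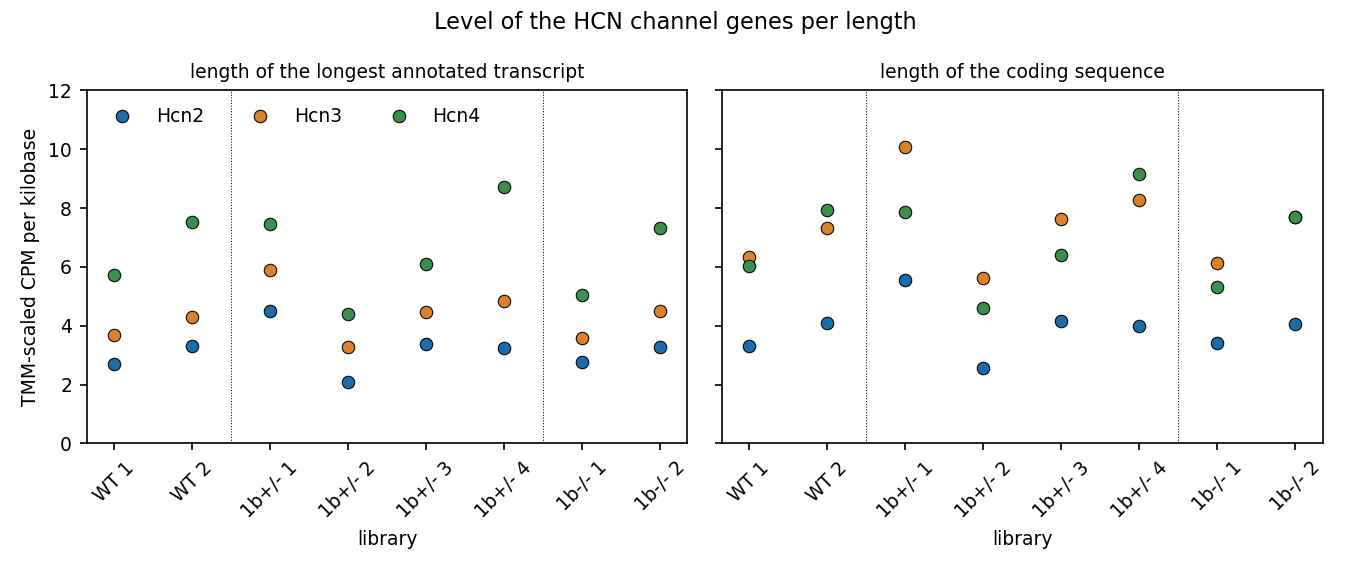
TMM-scaled CPM per kilobase (y axis) of the 3 HCN genes in each library (x axis, dotted lines between genotypes), divided by the length of the longest annotated transcript (left) or of the coding sequence (right). *Hcn2* is lowest in all 8 libraries in both panels, and *Hcn4* is highest in 8 of 8 libraries on the left and in 3 of 8 on the right.

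The division of HCN transcript between the 3 genes differed between genotypes by less than the SD among 1b+/- mice for *Hcn2* and *Hcn4*, and by little more for *Hcn3*. *Hcn4* made up 48.5 ± 1.81% of the sum per kilobase in WT (SD, n = 2), 45.6 ± 4.38% in 1b+/- (n = 4) and 46.4 ± 2.84% in 1b-/- (n = 2). *Hcn3* made up 29.4 ± 1.56%, 31.9 ± 2.13% and 30.6 ± 1.13%, and *Hcn2* 22.0 ± 0.255%, 22.5 ± 2.698% and 23.0 ± 1.72%. The widest departure was 1b+/- replicate 4, with *Hcn4* at 51.9% and *Hcn2* at 19.3%. In whole tissue, fewer cells with a transcript and less transcript per cell cannot be told apart.

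Proteins that bind HCN channels were described through a list of 12 partner genes, of which 11 passed the filter and *Cav3*, a caveolin of muscle, did not. None of the 11 passed an adjusted p of 0.05 in any of the 4 fits, by quasi-likelihood, by the likelihood ratio test or by DESeq2. Their median log2 fold change was -0.11 in 1b+/- against WT, where the median over all genes was 0.01, and -0.10 in 1b-/- against WT, where it was -0.01. The second of these was 0.019 without WT replicate 2 and -0.19 without 1b-/- replicate 2. *Pex5l* encodes TRIP8b, the auxiliary subunit that governs trafficking of HCN channels to dendrites. It stood at 7.99 ± 1.33 CPM in WT, 6.78 ± 0.902 in 1b+/- and 7.17 ± 0.937 in 1b-/-, with log2 fold changes of -0.25 (SE 0.23) and -0.15 (SE 0.28) against WT. *Mrvi1* and *Lrmp*, proteins of the endoplasmic reticulum that alter the response of the *Hcn4* channel to cyclic AMP, were scarce, at 1.99 to 6.06 CPM and at 0 to 1.11 CPM, and the log2 fold change of *Lrmp* in 1b-/- against WT had an interval from -3.12 to 1.70 around a value of -0.71.

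The partner genes with an unadjusted p under 0.05 were *Flna* and *Kcne2*, both in 1b+/- against WT, or 2 of 11 where 4.34% of all genes had one. The count was 0 without WT replicate 1, and 1 without WT replicate 2 and by DESeq2. *Flna*, the actin cross-linker filamin A, read 146 and 180 CPM in WT, 237, 213, 188 and 242 CPM in 1b+/- and 193 and 229 CPM in 1b-/-, with a log2 fold change of 0.43 (SE 0.16; edgeR unadjusted p = 0.0181, adjusted p = 0.99994). All 4 1b+/- values lay above both WT values, and ranges failed to overlap, in either direction, for 12.3% of all genes. Genes of vessels and meninges, where filamin A is abundant, summed to 492 and 714 CPM in WT and to 1705, 916, 695 and 846 CPM in 1b+/-, and their part in the *Flna* values was not tested.

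*Kcne2*, a small accessory subunit of potassium and HCN channels that is also abundant in choroid plexus epithelium, read 23.2 and 23.9 CPM in WT, 6.01, 0.40, 5.82 and 18.03 CPM in 1b+/- and 11.3 and 21.3 CPM in 1b-/-. Its log2 fold change in 1b+/- against WT was -1.88 (SE 0.68; edgeR unadjusted p = 0.0174, adjusted p = 0.99994). The 8 choroid plexus genes, all of which passed the filter, summed to 947 and 1009 CPM in WT, 205, 22.1, 183 and 960 CPM in 1b+/- and 420 and 830 CPM in 1b-/-. *Ttr*, which encodes transthyretin and is the most abundant of them, was lowest in 1b+/- replicate 2, at 6.77 CPM, and highest in WT replicate 2, at 938 CPM. The lowest *Kcne2*, the lowest *Ttr* and the lowest level of all 3 HCN genes fell in the same library. It was also lowest in the pan-neuronal sum (5509 CPM) and highest in the neocortical sum (1394 CPM). Other libraries did not all follow that order. Choroid plexus genes were at 205 CPM in 1b+/- replicate 1, the highest for *Hcn2* and *Hcn3*. They were at 947 CPM in WT replicate 1, where the HCN genes averaged -0.18 (log2) from their mean. The part of choroid plexus in the *Kcne2* and HCN values was not tested.

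The enzymes that make and break down cyclic AMP, which binds to HCN channels, gave no call either. All 9 adenylyl cyclase genes and all 16 phosphodiesterase genes of the fixed lists passed the filter. By quasi-likelihood or by DESeq2, 0 of 25 passed a threshold of 0.05 with or without adjustment in any of the 4 fits. Without adjustment, 1.23% to 4.34% of all genes passed by quasi-likelihood, and 131 to 552 of 15588 genes by DESeq2. Under other settings up to 2 of the 16 phosphodiesterases and up to 1 of the 9 cyclases had an unadjusted p under 0.05 (2 phosphodiesterases with sex as a covariate or in males alone, in 1b+/- against WT), and 0 passed after adjustment. Median log2 fold changes of the cyclases against WT were 0.03 in 1b+/- and -0.02 in 1b-/-, and those of the phosphodiesterases -0.03 and 0.06. With 1 library left out at a time the cyclase medians ran from -0.083 to 0.213 and from -0.149 to 0.138, and the phosphodiesterase medians from -0.081 to 0.018 and from -0.015 to 0.071, so none kept its sign throughout. *Adcy1*, a cyclase stimulated by calcium and calmodulin in neurons, had log2 fold changes of -0.07 (SE 0.15) and 0.05 (SE 0.17) against WT. *Pde10a*, a phosphodiesterase of striatal neurons, had -0.16 (SE 0.14) and 0.05 (SE 0.17), and *Pde2a*, which is stimulated by cyclic GMP, had 0.01 (SE 0.21) and 0.11 (SE 0.24). The summed level of the cyclases was lowest in 1b+/- replicate 2 (410 CPM) and highest in 1b+/- replicate 1 (578 CPM), the libraries that were also lowest and highest for *Hcn2* and *Hcn3*.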

How the data were processed

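Messenger RNA of 8 P7 mice (WT n = 2, 1b+/- n = 4, 1b-/- n = 2) had been made into TruSeq stranded libraries and read as single 50-base reads in a shared lane. Per the labels, the authors aligned the reads to mm9 with STAR 2.7.2 and used featureCounts to count them. Strand use, the treatment of reads that match more than 1 place, and the gene annotation are not given in the sources used here. The deposited values are raw counts per gene symbol, and all 8 columns were used.

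From these counts, genes reaching 1 CPM in any library were kept, scaled by TMM and tested in R 4.3.3 by quasi-likelihood in edgeR 4.0.16, with genotype as the factor, all 8 libraries in 1 fit and Benjamini-Hochberg adjustment over 15588 genes at 0.05. The study describes a generalized linear model with tagwise dispersion. Intervals are at 95%. Replicates were numbered in the order of deposit and pair no mice. Labels do not state litters, so p-values measure spread between these mice. Gene models were GENCODE vM1 on mm9, and log2 CPM used a prior count of 2. The named genes were the HCN genes, *Scn1a*, members of fixed lists, and for each HCN gene the 3 genes most correlated with it. Members and lists were chosen with earlier results of these data known. Alternatives were upper quartile and RLE scaling, no filter and filterByExpr, DESeq2 1.42.0 and the likelihood ratio test, fits of 2 groups or 1 sex, a sex covariate, and omission of each library. Offsets for GC content (lowess span 0.3), coding length and length without shared bases were added after seeing the data.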

Additional observations from a re-analysis of the deposited data

How the results depend on the processing

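Over 207 values of the 3 HCN genes under 18 alternatives, 0 passed an adjusted p of 0.05, 181 kept their sign and 26 changed it, from values of -0.15 to 0.16 (log2) in the fit with all libraries. Under upper quartile scaling *Hcn4* in 1b+/- against WT was 0.019. Without the filter *Hcn2* and *Hcn3* in 1b-/- against WT were -0.0026 and -0.00098. With GC-content offsets they were -0.045 and -0.031, and per deleted allele -0.022 and -0.012. When each library was left out in turn, log2 fold changes in 1b+/- against WT ran from -0.049 to 0.33 for *Hcn2*, 0.058 to 0.35 for *Hcn3* and -0.20 to 0.20 for *Hcn4*. In 1b-/- against WT they ran from -0.14 to 0.16, -0.15 to 0.18 and -0.38 to 0.15. In 1b-/- against 1b+/- they ran from -0.32 to 0.058, -0.37 to -0.036 and -0.37 to 0.16, and per deleted allele from -0.086 to 0.094, -0.079 to 0.12 and -0.15 to 0.054. Where 1 mouse was left in a group, it was assumed to vary like the other groups. Per coding length, with the counts unchanged, *Hcn2* moved to 3.89 and *Hcn3* to 7.38 CPM per kilobase. With the bases shared with *Pklr* taken off its length only, *Hcn3* moved to 5.25.

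Over all genes, calls in 1b+/- against WT ranged from 0 (sex as a covariate, among others) to 64 (likelihood ratio test) beside 13, in 1b-/- against WT from 1 to 33 beside 1, in 1b-/- against 1b+/- from 0 to 1 beside 1, and per allele from 0 to 31 beside 6. Precision is limited by 2 mice in WT and in 1b-/-, and by 31 to 222 counts of *Hcn2*. Sex could not be separated from genotype in 1b-/- against WT except through 1b+/- mice, and 1b-/- against WT could not be fitted within a sex. No paired analysis was possible because the labels give no litters or pairs, and the replicate numbers only follow the order of deposit.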

Other observations

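Other channel genes that act beside HCN channels in pacing were read in the same libraries. T-type calcium channels carry the low-threshold current that works with Ih in rhythmic firing of thalamic neurons. All 3 of their genes passed the filter and none passed an adjusted or an unadjusted p of 0.05 in the 4 edgeR fits. *Cacna1g* had log2 fold changes of 0.04 (SE 0.27) in 1b+/- and 0.23 (SE 0.31) in 1b-/- against WT, *Cacna1h* -0.07 (SE 0.19) and 0.09 (SE 0.23), and *Cacna1i* 0.06 (SE 0.24) and 0.23 (SE 0.28). In 1b-/- against WT the median of the 3 was 0.23, beside -0.01 over all genes, but its sign rested on 1 library, at -0.075 without 1b-/- replicate 2, 0.499 without 1b-/- replicate 1 and 0.053 without WT replicate 1. Their summed level ran from 95.6 CPM in 1b+/- replicate 2, the library lowest in all 3 HCN genes, to 151 CPM in 1b-/- replicate 2.

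Cyclic nucleotide-gated channels are the nearest relatives of HCN channels and serve vision and smell. Of 6 genes 3 passed the filter (*Cnga2*, *Cngb1* and *Cngb3*), the list summed to 1.0 to 4.53 CPM in each library, and 0 of 3 passed with or without adjustment. Each of these 3 reached 1 CPM only in libraries with a deleted allele. In WT they peaked at 0.31 (*Cnga2*), 0.92 (*Cngb1*) and 0.31 CPM (*Cngb3*). The filter thus favoured values above WT, and no weight can be put on the sign of their fold changes. Their median log2 fold change was 1.62 in 1b+/- and 1.20 in 1b-/- against WT. Their intervals all included 0, such as -0.60 to 3.85 for *Cngb3* in 1b+/-. Of the genes left out, *Cnga3* and *Cnga4* averaged lower in 1b+/- (0.42 and 0.22 CPM) than in WT (0.65 and 0.41). *Cnga1* was slightly higher (0.28 against 0.25).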
